A study of Arabidopsis thaliana with 24 samples.

Results

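Jasmonate is a lipid-derived hormone of plants, and 35 genes of its synthesis, signalling, response and turnover were followed in RNA-seq counts of *Arabidopsis thaliana* seedlings of 8 genotypes. They were taken from a list of gene identifiers chosen with earlier results of these data known. Shares of these genes set beside shares of all genes are thus descriptive. The list comprised 9 genes of synthesis and conjugation, the receptor gene *COI1* and 3 MYC transcription factors. The others were 11 repressor genes (10 *JAZ* genes and *NINJA*), 6 genes of hormone turnover and 5 marker genes of the response. All 35 were among the 33331 identifiers counted, and 33 of them passed the filter on low counts. Left out by that filter were *JOX1*, with 0 to 3 counts per library, and *PDF1.2*, with 0 counts in all 24 libraries.

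Each genotype had 3 replicate libraries of whole seedlings kept with shaking in a 3% sucrose solution and continuous light (24 h a day) for 4 days, a treatment that induces anthocyanin (AIC). S1, S2, S4, S5, S7 and S8, the suppressor lines, all have the *tt19-8* mutation in the Col-0 background together with a further mutation that brings anthocyanin back. The product of *TT19* is a glutathione S-transferase on which anthocyanin accumulation normally depends. The second mutation is a premature stop codon of *RDR6* in S1, S2 and S8, an amino acid replacement in the same gene in S4, and a change of a splice site in S5 (*SGS3*) and in S7 (*DCL4*), and these genes belong to the same small-RNA pathway. Every suppressor was a single line from a chemical mutagenesis, so that other mutations of a line could not be told apart from the named one. The lines were compared with their parent *tt19-8*, and *tt19-8* with wild-type Col-0. All groups, Col-0 included, had received the AIC treatment. Nothing stated whether replicates were grown as separate cultures, so that p-values measured the spread between these libraries, which may be technical. For each gene that spread was shared over the 8 genotypes and was not that of the libraries compared alone.

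Jasmonate is made from linolenic acid of the chloroplast. Lipoxygenases (LOX), allene oxide synthase (AOS) and allene oxide cyclases (AOC) make a precursor there, which OPR3 reduces in the peroxisome. The jasmonate formed from it is joined to isoleucine by JAR1. The conjugate brings the F-box protein COI1 to the JAZ repressors, which are then degraded, and MYC2, MYC3 and MYC4 are released to act on their target genes. Many of those targets are themselves pathway genes, among them *JAZ*, *LOX* and *AOC* genes and the genes of the enzymes that oxidise the hormone (JOX and CYP94), and *VSP1* and *VSP2* are widely used reporters of the response. In wild-type seedlings jasmonate is also known to promote anthocyanin formation.

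Library totals lay between 25827059 and 73443869 counts, and the common biological coefficient of variation was 14.2%. *TT19* itself had 1.84 to 11.6 CPM (counts scaled to the library total) in the lines, 0.936 to 1.54 CPM in *tt19-8*, and 125 to 133 CPM in Col-0. Some libraries stood apart from the other replicates of their genotype. Replicate 3 of *tt19-8* had a summed level of 9532 CPM over 10 low-oxygen genes, against 1974 and 2034 CPM in the other *tt19-8* libraries, and replicate 3 of S8 had 7307 CPM, against 2970 and 2981 CPM. Replicate 3 of S2 had 5090 CPM of 5 seed storage genes, against 1294 and 1342 CPM, and replicate 3 of S5 had 19.2 CPM of *SGS3*, against 8.90 and 9.80 CPM. The same S2 library had 4298 CPM of low-oxygen genes, against 1995 and 1917 CPM, and 752 CPM of 6 root genes, against 1522 and 1403 CPM. Replicate 3 of S7 had 1514 CPM of low-oxygen genes, against 3680 and 4021 CPM. Whole seedlings hold both root and shoot, and all 6 root and all 5 shoot marker genes had counts, with the chlorophyll-binding protein gene *CAB2* at 0 in 1 S8 library. The sums were led by single genes. *PYK10* had 530 to 2204 CPM over the 24 libraries, and each other root gene at most 195 CPM. *RBCS1A* had 87.5 to 307 CPM, and each other shoot gene at most 27.7 CPM. In bulk tissue, fewer cells of a type and less RNA per cell cannot be told apart.

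MYC factors bind the G-box, spelled CACGTG, and its variant AACGTG, often called the T/G-box. Both were searched on both strands in the 250 bases upstream of the RefSeq gene start of TAIR10.1, and the motifs overlapped each other in 0 of the promoters of the 35 genes. CACGTG was present in 6 of the 35 (17.1%), against 1780 of 27443 protein-coding genes (6.49%), and AACGTG in 12 of the 35 (34.3%), against 7.54% of all. Either motif was present in 16 of the 35 (45.7%), against 13.3% of all. Stretches of 60 bases around the motif nearest the gene start are printed below for 6 genes whose levels the results turn on, 5′ to 3′ on the strand of the gene, with the motif in capitals.
*JAZ5*, chr1:5957697-5957756, minus strand: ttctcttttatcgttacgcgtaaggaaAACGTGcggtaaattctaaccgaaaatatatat
*JAZ6*, chr1:27276657-27276716, minus strand: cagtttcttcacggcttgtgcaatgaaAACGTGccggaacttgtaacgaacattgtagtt
*JOX3*, chr3:20769426-20769485, minus strand: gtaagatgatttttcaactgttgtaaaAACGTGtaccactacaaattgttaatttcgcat
*LOX4*, chr1:27308392-27308451, plus strand: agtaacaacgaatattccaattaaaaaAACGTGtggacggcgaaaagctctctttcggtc
*JAZ2*, chr1:28150480-28150539, minus strand: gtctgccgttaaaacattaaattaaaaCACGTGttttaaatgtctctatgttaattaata
*AOS*, chr5:17099596-17099655, minus strand: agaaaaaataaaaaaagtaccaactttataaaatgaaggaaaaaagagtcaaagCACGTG
A match describes these letters and not a bound site. Neither motif was found in the 250 bases before *JAZ1*, *JAZ10*, *LOX3*, *JOX2*, *CLH1* or *VSP2*, which says only that these letters are not in that window.

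Across the 8 genotypes, 30 of the 33 genes tested differed (edgeR quasi-likelihood test, Benjamini-Hochberg adjusted p under 0.05), where 79.9% of the 22089 genes tested in all did so. *COI1* (adjusted p = 0.196), *JAZ9* (0.183) and *THI2.1* (0.0593) did not pass. With genes of a mean under 1 CPM set aside, *VSP1* had the widest range of genotype means, with 13.3 CPM in S1 and 0.240 CPM in S2, a ratio of 55.5. *VSP2* followed with a ratio of 13.2, then *AOC2* with 10.7, *JOX3* with 10.4, *JAZ10* with 8.26, *CLH1* with 7.51 and *JOX2* with 5.96. The narrowest range was that of *COI1*, with a ratio of 1.15 between S2 and *tt19-8*. Per unit of transcript length, *JAZ1* was the most abundant of the 35 at a mean of 208 TPM (a length-scaled share of all transcripts), followed by *JAR1* at 182 TPM and *JAZ12* at 135 TPM. *JAZ10*, *LOX4* and *AOC2* were at mean levels of 3.03, 3.10 and 4.42 TPM.

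**Figure D1:**
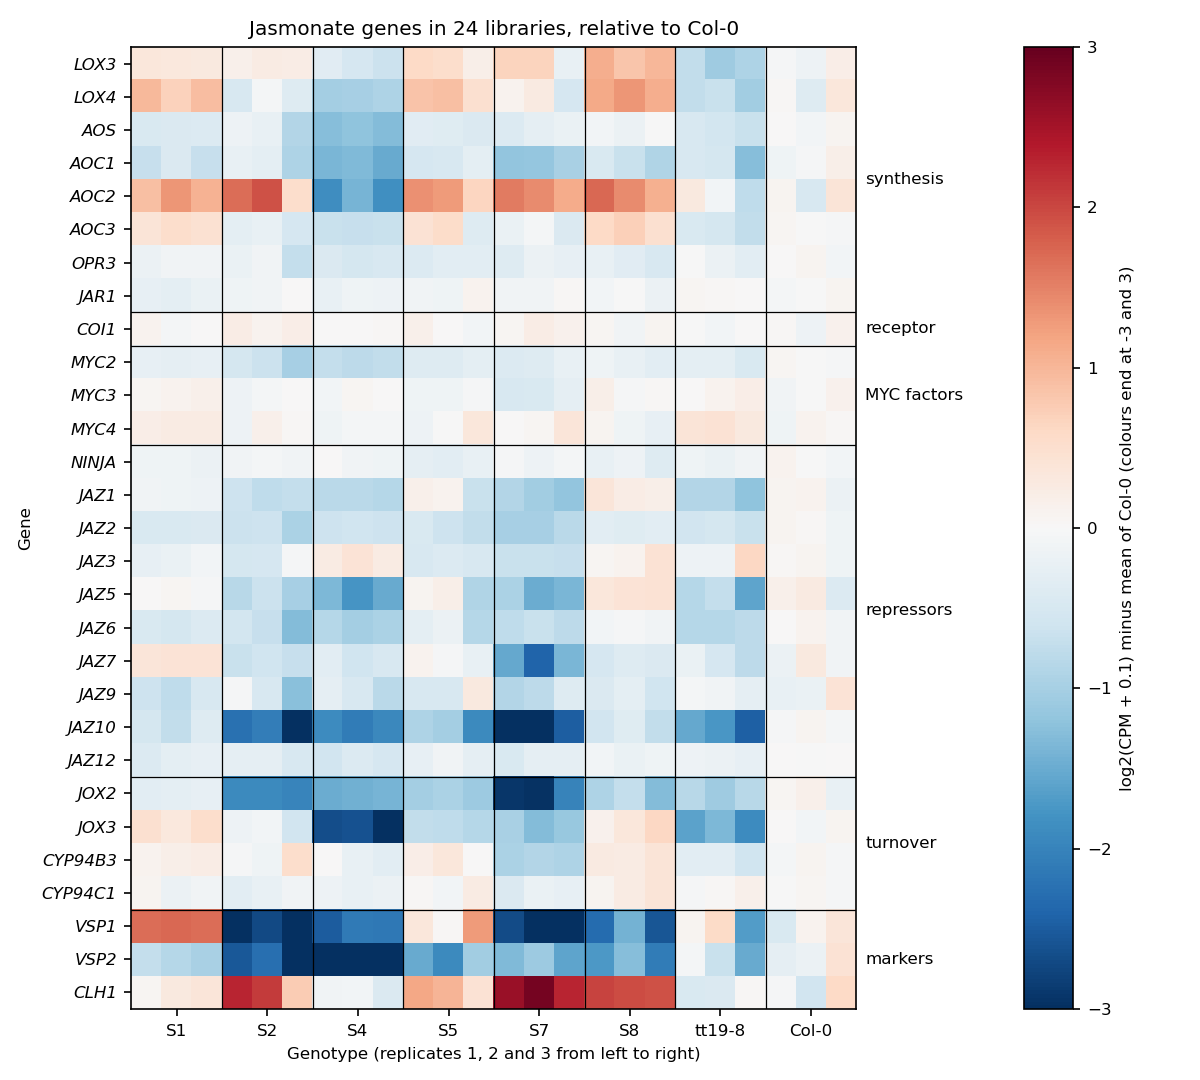
Each row is a gene of mean level over 1 CPM, grouped by role, and each column a library. Colour is log2(CPM + 0.1) minus the mean of the 3 Col-0 libraries, ending at -3 and 3. *JAZ10*, *JOX2* and *JOX3* are mostly blue in *tt19-8*, S4 is blue over most synthesis genes, and *CLH1* is red in S2, S7 and S8.

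In *tt19-8*, 15 of the 33 genes fell and 1 rose relative to Col-0, which is 45.5% lower and 3.03% higher, where 6.5% of all genes tested were lower and 7.13% higher. The 15 were *LOX3*, *LOX4*, *AOS*, *AOC1* and *AOC3* of synthesis, *MYC2*, the repressor genes *JAZ1*, *JAZ2*, *JAZ5*, *JAZ6* and *JAZ10*, and the turnover genes *JOX2*, *JOX3*, *JOX4* and *CYP94B3*. The median log2 fold change over the 33 was -0.40, against 0.0024 over all genes tested. The response markers among the 33, *VSP1*, *VSP2*, *CLH1* and *THI2.1*, did not pass (adjusted p between 0.239 and 0.917). Markers of the wider list described further below were lower wherever they could be tested. By the same edgeR test, log2 fold changes were -2.41 ± 0.40 for *TAT3* (adjusted p = 0.000504) and -1.75 ± 0.44 for *ERF1* (0.0111). They were -0.78 ± 0.26 for *ANAC019* (0.0470) and -0.65 ± 0.11 for *ANAC055* (0.00068). Calls of the wider list were not followed when libraries were left out. The libraries of *tt19-8* and Col-0 did not overlap for 20 of the 33 genes, against 33.6% of all genes tested. Leaving out replicate 3 of *tt19-8* left 10 calls, all lower, with *AOC1*, *AOC3*, *MYC2*, *MYC4*, *JOX4* and *CYP94B3* no longer called. *AOC3* and *MYC2* were also lost without replicate 1 of Col-0, and *LOX4* without replicate 3 of Col-0. A fit to *tt19-8* and Col-0 alone lost *LOX4* and *AOC1*.

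The repressor gene *JAZ10* (AT5G13220) fell most of the genes over 1 CPM, with 2.84, 2.44 and 1.45 CPM in *tt19-8*, against 8.21, 8.98 and 8.15 CPM in Col-0. No *tt19-8* library reached any Col-0 library, and the log2 fold change was -1.91 ± 0.31 (SE, adjusted p = 0.000522). *JOX3* (AT3G55970), a 2-oxoglutarate oxygenase that hydroxylates and so inactivates jasmonate, had 3.19, 3.87 and 2.62 CPM in *tt19-8*, against 9.95, 9.41 and 10.4 CPM in Col-0. Its values too were separate, with a log2 fold change of -1.62 ± 0.18 (adjusted p = 1.45e-05). *JOX4*, a close relative with the same activity, was near the limit of detection, with 13, 14 and 6 counts in *tt19-8*, against 57, 34 and 50 counts in Col-0. That difference passed the test (adjusted p = 0.021) but not when replicate 3 of *tt19-8* or replicate 1 or 3 of Col-0 was left out. The single gene that was higher was *MYC4*, with 41.7, 43.2 and 38.9 CPM in *tt19-8*, against 28.9, 34.1 and 32.7 CPM in Col-0. Its log2 fold change of 0.37 ± 0.11 (adjusted p = 0.0341) lost the call when any 1 of the 6 libraries was left out, and the loss of *CYP94B3* (log2 fold change -0.40 ± 0.13, adjusted p = 0.0422) did so without replicate 2 or 3 of *tt19-8* or any 1 Col-0 library.

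The other repressor genes that fell differed in size of change and in level. *JAZ1* had 149, 149 and 118 CPM in *tt19-8*, against 288, 292 and 242 CPM in Col-0. The genotypes were apart and the log2 fold change was -0.98 ± 0.14 (adjusted p = 0.000169). *JAZ5*, *JAZ6* and *JAZ2* had log2 fold changes of -1.05, -0.84 and -0.59. For *JAZ3*, *JAZ7*, *JAZ8*, *JAZ9*, *JAZ12* and *NINJA* the comparison did not pass, with adjusted p between 0.094 and 0.717. In the same libraries the summed level of the 5 seed storage genes was 982 to 1107 CPM in *tt19-8* and 47.7 to 132 CPM in Col-0, and that of the 10 low-oxygen genes was 1974 to 9532 CPM in *tt19-8* and 1130 to 1950 CPM in Col-0. Their part in these differences was not tested.

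The suppressor lines did not move as 1 group. Relative to *tt19-8*, 14 genes were higher and 1 lower in S1, or 42.4% and 3.03% of the 33, where 16.5% of all genes tested were higher and 17.5% lower. In S8, 14 were higher and 2 lower, or 42.4% and 6.06%, against 12.6% and 13.1% of all genes. In S5, 11 were higher and 1 lower, or 33.3% and 3.03%, against 12.3% and 12.4% of all genes. S4 stood at the other end, with 0 higher and 12 lower, or 36.4% lower, against 7.83% of all genes higher and 10.9% lower. By edgeR 1 gene was higher in S4 at an unadjusted p under 0.05 (*LOX3*), by DESeq2 0 were called higher, and without replicate 3 of *tt19-8*, S2 and S8, 1 was. S2 had 5 higher and 6 lower, or 15.2% and 18.2%, where 9.49% and 9.6% of all genes were called. Without replicate 3 of S2 it was 6 and 6, and a fit to S2 and *tt19-8* alone left 3 higher and 1 lower. S7 had 5 higher and 10 lower, or 15.2% and 30.3%, where 18.1% and 19.2% of all genes were called, and without its replicate 3 it was 6 and 10. The median log2 fold change over the 33 genes was 0.37 in S1, 0.14 in S8, 0.20 in S5, -0.18 in S4, -0.11 in S2 and -0.15 in S7, and that over all genes tested lay between -0.018 and -9.3e-05. All 6 comparisons share the 3 *tt19-8* libraries, and so does the comparison of *tt19-8* with Col-0. A gene's fall in *tt19-8* and its rise in a line were thus not independent observations.

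**Figure D2:**
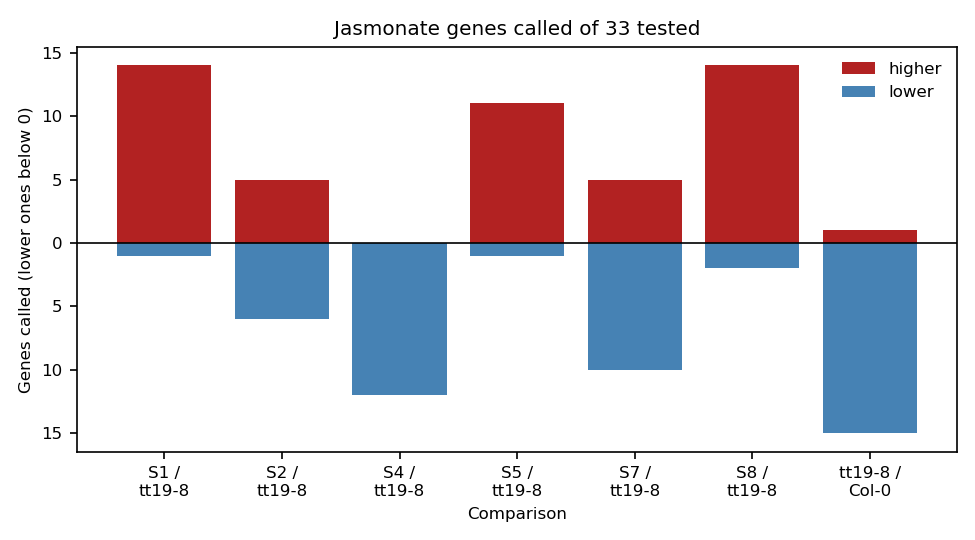
Bars give the number of the 33 tested genes called higher (red, above 0) and lower (blue, below 0) at an adjusted p under 0.05 in each suppressor line relative to *tt19-8*, and in *tt19-8* relative to Col-0. S1 and S8 have 14 higher each, S4 has 0 higher and 12 lower, and *tt19-8* has 15 lower.

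Among the genes of synthesis, the lipoxygenases were higher in most lines. *LOX3* (AT1G17420), a 13-lipoxygenase of the first step, had 20.7, 20.4 and 19.9 CPM in S1, 18.1, 19.4 and 19.0 CPM in S2, 12.8, 11.4 and 10.5 CPM in S4, and 24.8, 23.5 and 18.3 CPM in S5. It had 26.1, 25.8 and 14.1 CPM in S7 and 34.6, 28.9 and 32.8 CPM in S8, against 9.67, 7.78 and 8.56 CPM in *tt19-8*. All libraries of the lines exceeded all those of *tt19-8*. The difference passed the test in 5 lines, where the log2 fold change was 1.89 ± 0.17 for S8, 1.36 ± 0.17 for S5, 1.33 ± 0.17 for S7, 1.23 ± 0.17 for S1 and 1.12 ± 0.17 for S2 (adjusted p between 1.83e-07 and 0.000121), and not in S4, where it was 0.42 ± 0.17 (adjusted p = 0.0938).

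*LOX4* (AT1G72520), the closest relative of *LOX3*, had 8.72, 7.17 and 8.44 CPM in S1, 8.02, 8.22 and 6.10 CPM in S5 and 9.71, 11.0 and 9.46 CPM in S8, against 2.56, 2.72 and 2.08 CPM in *tt19-8*. These 3 lines were well above their parent, with log2 fold changes of 1.72 ± 0.20, 1.60 ± 0.20 and 2.03 ± 0.21 (adjusted p of 2.59e-06, 1.71e-05 and 6.3e-07). S7 was higher by 0.80 ± 0.21 (adjusted p = 0.00437), and S2 (0.53 ± 0.21) and S4 (-0.18 ± 0.21) did not pass. The coding sequences of *LOX3* and *LOX4* were 80.6% identical, and how reads that map to both were counted is not stated. *LOX2*, the lipoxygenase of leaf chloroplasts, had 0 counts in every library of *tt19-8* and of Col-0. It had 15, 16 and 19 counts in S1, 25, 10 and 10 in S5, 23, 21 and 5 in S7, and 8, 8 and 27 in S8. Set against a floor of 3 counts in the *tt19-8* library where these make the highest CPM, its mean CPM was at least 3.62-fold higher in S1, 4.22-fold in S5, 5.91-fold in S7 and 5.58-fold in S8. *LOX2* is counted among the genes called higher in these 4 lines, but it passed the filter on low counts only through the lines in which it was detected, so that its calls there support nothing beyond the counts. S2 had 4 counts in 1 library and S4 had 1 count in 1 library.

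**Figure D3:**
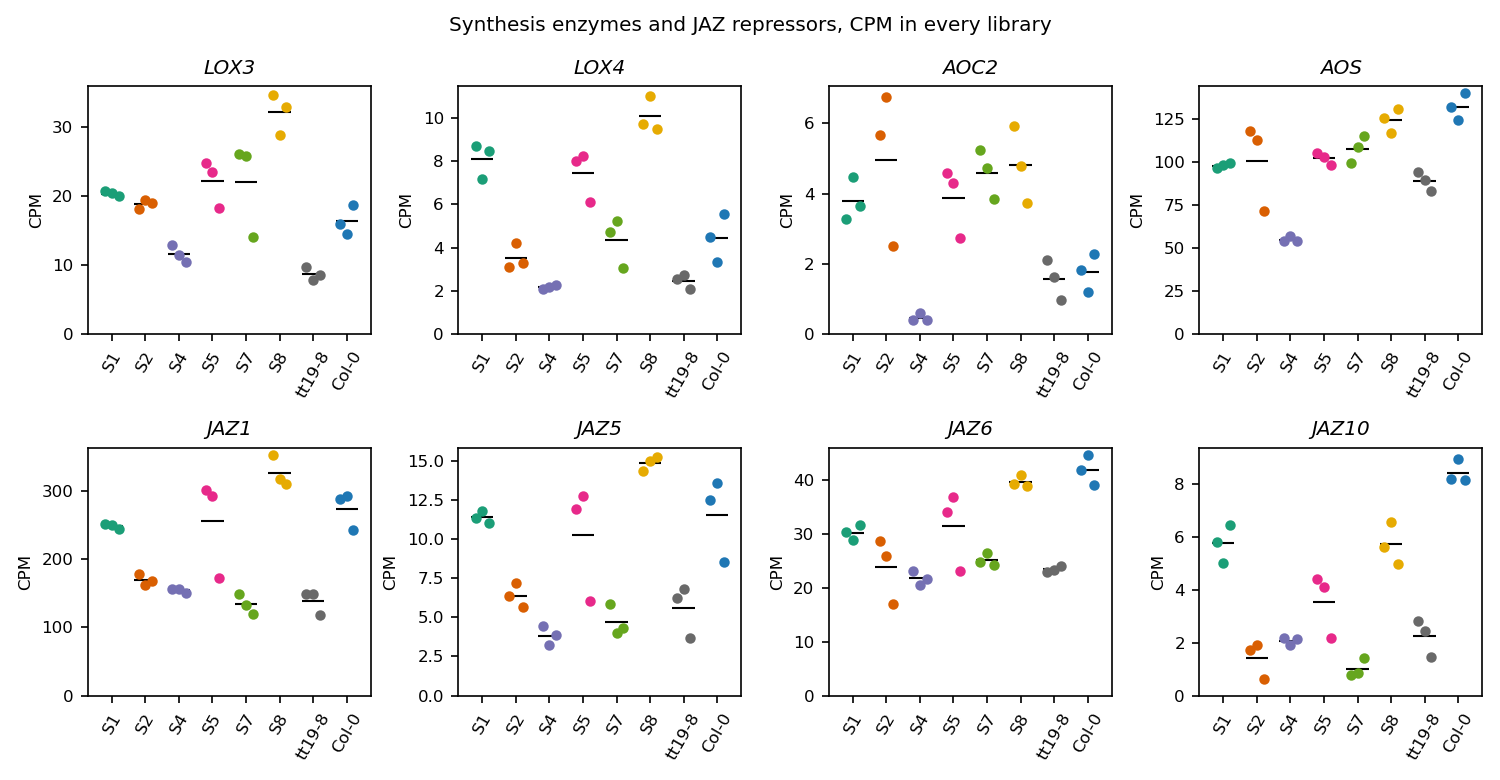
Points are CPM in the 3 libraries of each genotype and black lines their means, for 4 synthesis genes (upper row) and 4 *JAZ* repressor genes (lower row), on linear axes from 0. S8 and S1 lie above *tt19-8* for *LOX3*, *LOX4*, *JAZ1*, *JAZ5* and *JAZ10*, S4 has the lowest *AOS* and *AOC2*, and replicate 3 of S5 lies below its other replicates for all 4 *JAZ* genes.

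The allene oxide cyclase genes did not move alike. *AOC2* (AT3G25770) had 5.66, 6.74 and 2.49 CPM in S2, 0.396, 0.594 and 0.409 CPM in S4, and 5.24, 4.71 and 3.83 CPM in S7, against 2.12, 1.61 and 0.967 CPM in *tt19-8*. S2 and S7 lay wholly above *tt19-8* and S4 wholly below, with log2 fold changes of 1.66 ± 0.34 (adjusted p = 0.00156), 1.54 ± 0.34 (0.00116) and -1.72 ± 0.38 (0.00298). The S2 value did not pass in a fit to S2 and *tt19-8* alone (adjusted p = 0.0731). *AOC2* was also higher in S1, S5 and S8, by 1.27 to 1.61 on the log2 scale (SE 0.33 to 0.34). *AOC3* was higher in S1, S5 and S8 alone, by 1.03 ± 0.15, 0.83 ± 0.15 and 1.17 ± 0.15, and *AOC1* passed in S4 alone, where it was lower by a log2 fold change of -0.68 ± 0.18 (adjusted p = 0.0112) that lost its call without replicate 3 of S4 or replicate 1 or 2 of *tt19-8*. The coding sequences of *AOC1* and *AOC2* were 90.3% identical and those of *AOC1* and *AOC3* 82.4%, so that the split of reads among them is uncertain.

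The remaining genes of synthesis act before the cyclases (*AOS*) or after them (*OPR3* and *JAR1*). The ratio of highest to lowest genotype mean was 2.40 for *AOS*, 1.39 for *OPR3* and 1.21 for *JAR1*. It was 2.65 for *AOC1*, 10.7 for *AOC2* and 2.42 for *AOC3*. *AOS* (AT5G42650), the single allene oxide synthase gene, had 54.3, 56.8 and 53.9 CPM in S4 and 126, 117 and 131 CPM in S8, against 94.1, 89.7 and 83.1 CPM in *tt19-8*. S4 was lower by a log2 fold change of -0.69 ± 0.12 (adjusted p = 0.000332) and S8 was higher by 0.48 ± 0.12 (adjusted p = 0.00421), with no overlap in either case. *OPR3*, the reductase of the peroxisome, passed in S4 alone at -0.32 ± 0.11 (adjusted p = 0.0493). *JAR1* (AT2G46370), which makes the active conjugate, had 248, 240 and 257 CPM in S1, against 304, 302 and 296 CPM in *tt19-8*. This was the only 1 of the 33 genes called lower in S1 and its change was small, at -0.27 ± 0.07 (adjusted p = 0.00416). *JAR1* was also called in S4 (-0.20 ± 0.07, adjusted p = 0.044). The S4 calls of *OPR3* and *JAR1* were both lost with RLE size factors, without the filter on low counts, and without any 1 S4 library or replicate 1 or 2 of *tt19-8*. That of *JAR1* was also lost in a fit to S4 and *tt19-8* alone.

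The receptor gene *COI1* was at 54.6 to 72.0 CPM in the 24 libraries and was called in none of the lines. *MYC2* (AT1G32640), the leading transcription factor of the pathway, had 118, 110 and 85.8 CPM in S2 and 103, 99.3 and 102 CPM in S4, against 140, 141 and 124 CPM in *tt19-8*. Both lines lay below their parent, with log2 fold changes of -0.36 ± 0.09 (adjusted p = 0.00581) and -0.41 ± 0.09 (adjusted p = 0.00258), and in the other 4 lines the change was between -0.02 and 0.12 and did not pass. The exons of *MYC2* are overlapped over 98.5% of their length by AT1G32630 on the opposite strand, which had 6.32 to 9.54 CPM, and whether reads were counted by strand is not stated. *MYC3* was lower in S7 (-0.50 ± 0.08, adjusted p = 3.69e-05). *MYC4* had 33.9, 28.9 and 26.6 CPM in S8, against 41.7, 43.2 and 38.9 CPM in *tt19-8*, wholly below it, with a log2 fold change of -0.47 ± 0.12 (adjusted p = 0.00452), and it was also called lower in S2 and S4. The S2 call of *MYC4* was lost without replicate 1 of S2 or replicate 1 or 2 of *tt19-8*. In a fit to S2 and *tt19-8* alone, the S2 calls of *MYC2* and *MYC4* were both lost.

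Of the 11 repressor genes, 5 (45.5%) were higher in S1 and 5 in S8, where 16.5% and 12.6% of all genes tested were higher. In S5, 3 (27.3%) were higher and 1 (9.09%) lower, against 12.3% and 12.4% of all genes. In S7, 4 (36.4%) were lower, against 19.2% of all genes, and the 1 lower in S2 and the 1 in S4 were near the 9.6% and 10.9% of all genes. *JAZ1* (AT1G19180) had 252, 250 and 244 CPM in S1 and 352, 317 and 310 CPM in S8, against 149, 149 and 118 CPM in *tt19-8*. The libraries were far apart, with log2 fold changes of 0.84 ± 0.14 (adjusted p = 0.000129) and 1.23 ± 0.14 (adjusted p = 3.37e-06). In S5 it had 302, 293 and 173 CPM, higher than *tt19-8* by 0.88 ± 0.14 (adjusted p = 0.000165), and replicate 3 was well below the other S5 libraries. In S2, S4 and S7 the *JAZ1* change was 0.28, 0.15 and -0.05 and did not pass.

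*JAZ10* had 5.82, 5.03 and 6.47 CPM in S1, 5.62, 6.59 and 4.98 CPM in S8 and 0.792, 0.844 and 1.43 CPM in S7, against 2.84, 2.44 and 1.45 CPM in *tt19-8*. S1 and S8 were above their parent by 1.36 ± 0.31 (adjusted p = 0.002) and 1.35 ± 0.32 (0.00314), and S7 was below it with a log2 fold change of -1.08 ± 0.34 (adjusted p = 0.016). The S7 call was lost without replicate 1 or 2 of S7 or replicate 1 of *tt19-8*, and in a fit to S7 and *tt19-8* alone. Relative to Col-0, *JAZ10* was lower in S2 (-2.58 ± 0.32), S4 (-2.02 ± 0.31), S5 (-1.24 ± 0.30) and S7 (-2.99 ± 0.34), and did not pass in S1 (-0.55 ± 0.30) and S8 (-0.56 ± 0.30).

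*JAZ5* was higher in S1, S5 and S8, with log2 fold changes of 1.03 ± 0.24, 0.87 ± 0.24 and 1.41 ± 0.24, and *JAZ6* in S5 and S8, with 0.42 ± 0.15 and 0.76 ± 0.15. Their S5 values overlapped with *tt19-8* in replicate 3 of S5, and both S5 calls were lost without replicate 1 or 2 of S5 or replicate 3 of *tt19-8*, that of *JAZ6* also without replicate 1 or 2 of *tt19-8*. A fit to S5 and *tt19-8* alone lost both as well. *JAZ7* (AT2G34600), a short repressor without the usual degradation motif, went in opposite directions in 2 lines. It had 6.54, 6.85 and 6.77 CPM in S1 and 1.71, 0.880 and 1.92 CPM in S7, against 4.46, 3.57 and 2.93 CPM in *tt19-8*. S1 lay above and S7 below all *tt19-8* libraries, with log2 fold changes of 0.88 ± 0.20 (adjusted p = 0.00171) and -1.24 ± 0.21 (0.000106). Its close relative *JAZ8* had 57, 63 and 29 counts in S1, against 11, 5 and 1 counts in *tt19-8* (adjusted p = 0.00449). *JAZ3* (AT3G17860) had 61.2, 64.1 and 61.3 CPM in S5, against 76.2, 77.1 and 131 CPM in *tt19-8*, where replicate 3 was the high one. The difference of -0.61 ± 0.16 (adjusted p = 0.00703) was lost without that library and in a fit to S5 and *tt19-8* alone. The fall of *JAZ3* in S7 (-0.84 ± 0.16, adjusted p = 0.000275) remained called. The remaining calls were *JAZ3* in S2 (-0.49 ± 0.16), *JAZ2* in S7 (-0.34 ± 0.08) and S8 (0.26 ± 0.08), and *JAZ12* in S4 (-0.30 ± 0.07). The call of *JAZ3* in S2 was lost without replicate 1 or 2 of S2 or replicate 3 of *tt19-8*, and in a fit to S2 and *tt19-8* alone. That of *JAZ2* in S8 was lost without replicate 1 or 3 of either genotype.

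Of the genes of turnover, *JOX3* had the strongest evidence of a difference among the 8 genotypes of all 33 genes (adjusted p = 1.37e-10). It had 13.8, 12.3 and 14.4 CPM in S1, 8.92, 9.44 and 6.63 CPM in S2, 1.49, 1.55 and 0.872 CPM in S4, 5.93, 5.80 and 5.46 CPM in S5, 5.0, 3.94 and 4.47 CPM in S7 and 10.9, 12.6 and 15.4 CPM in S8, against 3.19, 3.87 and 2.62 CPM in *tt19-8*. The 3 S4 libraries were the lowest of all 24, and the other 5 lines lay above *tt19-8*. Log2 fold changes were 2.06 ± 0.18 in S1, 1.36 ± 0.18 in S2, 0.82 ± 0.18 in S5 and 2.00 ± 0.18 in S8 (adjusted p between 9.67e-08 and 0.00257), and -1.28 ± 0.20 in S4 (adjusted p = 0.00011). S7 was at 0.47 ± 0.18 and just missed the threshold (adjusted p = 0.0519). The AACGTG motif of *JOX3* printed above ends 42 bases before the gene start.

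*JOX2* (AT5G05600), which encodes an enzyme of the same family, moved otherwise. It had 37.4, 37.9 and 38.9 CPM in S1, 12.4, 12.4 and 11.8 CPM in S2 and 6.06, 5.88 and 11.6 CPM in S7, against 26.2, 22.3 and 26.2 CPM in *tt19-8*. S1 was above its parent by 0.61 ± 0.17 (adjusted p = 0.00852), and S2 and S7 were below, with log2 fold changes of -1.03 ± 0.18 (adjusted p = 0.000352) and -1.63 ± 0.18 (7.25e-07). S2 therefore had more *JOX3* and less *JOX2* than *tt19-8*. The fall of *JOX2* in S4 (-0.56 ± 0.17, adjusted p = 0.029) was lost when any 1 S4 library or replicate 1 or 3 of *tt19-8* was left out. *CYP94B3*, the cytochrome P450 that hydroxylates jasmonoyl-isoleucine, was higher in S1, S2, S5 and S8 by 0.55 to 0.70 and lower in S7 (-0.52 ± 0.13, adjusted p = 0.00348). Without replicate 3 of *tt19-8*, S2 and S8 the S2 call of *CYP94B3* was lost, as it was in a fit to S2 and *tt19-8* alone. *CYP94C1*, which carries the oxidation further, passed in S7 alone (-0.35 ± 0.10, adjusted p = 0.00995). That call was lost without replicate 1 of S7 and in a fit to S7 and *tt19-8* alone. *JOX4* had 6, 1 and 4 counts in S7, against 13, 14 and 6 counts in *tt19-8* (adjusted p = 0.0467), with overlap between the genotypes, a call lost without replicate 2 or 3 of S7, replicate 1 or 2 of *tt19-8*, or the filter on low counts.

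**Figure D4:**
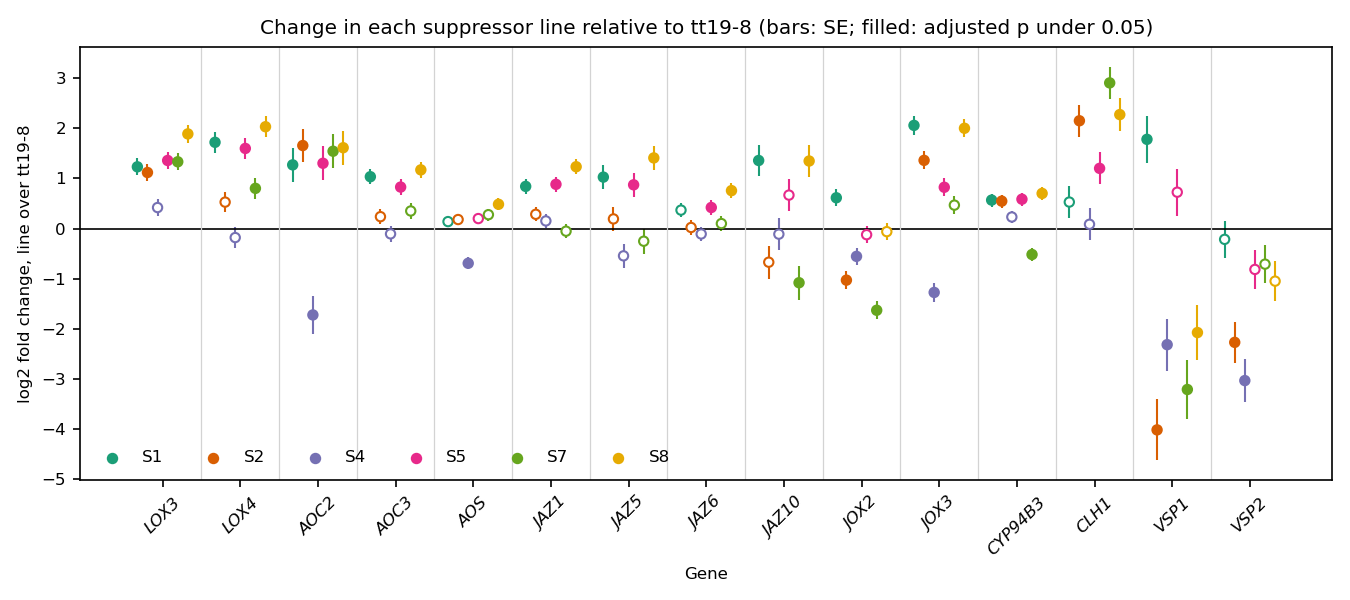
Points are log2 fold changes of each suppressor line over *tt19-8* for 15 genes, with bars of 1 SE, and filled points have an adjusted p under 0.05. *LOX3* lies above 0 in every line, S4 (violet) lies below 0 for *AOC2*, *AOS* and *JOX3*, and *VSP1* spreads between 1.78 in S1 and -4.02 in S2.

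Among the response markers, the vegetative storage protein genes spread most. *VSP1* (AT5G24780) had 13.2, 13.5 and 13.3 CPM in S1, 0.164, 0.539 and 0.0177 CPM in S2, 0.639, 0.856 and 0.844 CPM in S4 and 0.548, 0.317 and 0.388 CPM in S7, against 4.32, 6.05 and 1.19 CPM in *tt19-8*. S1 was above every *tt19-8* library and the other 3 lines below, with log2 fold changes of 1.78 ± 0.47 in S1, -4.02 ± 0.61 in S2, -2.32 ± 0.52 in S4 and -3.21 ± 0.58 in S7 (adjusted p of 0.00578, 0.000105, 0.00369 and 0.000196). In S2 these values rest on 7, 27 and 1 counts, the log2 fold change ranged between -5.52 and -3.42 over the alternatives, and a fit to S2 and *tt19-8* alone gave an adjusted p of 0.0554. The S1 value ranged between 1.36 and 2.27 and stayed called. *VSP1* in S8, at 0.736, 1.46 and 0.599 CPM, overlapped with the low replicate 3 of *tt19-8*. Its log2 fold change there was -2.08 ± 0.55 (adjusted p = 0.00714) and lost its call without replicate 2 of *tt19-8*.

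*VSP2* (AT5G24770), a near copy whose product is an acid phosphatase active in defence against insects, had 1.85, 2.27 and 0.424 CPM in S2 and 0.898, 0.898 and 0.844 CPM in S4, against 10.8, 7.07 and 3.87 CPM in *tt19-8*. Both lines were below their parent, with log2 fold changes of -2.27 ± 0.41 (adjusted p = 0.000549) and -3.04 ± 0.43 (4.21e-05), and the other 4 lines did not pass. In the fit to S2 and *tt19-8* alone the S2 value had an adjusted p of 0.0777. *VSP1* made up 23.6% to 46.1% of the counts of the pair in *tt19-8* and 23.8% to 30.1% in Col-0. Its part was 66.0% to 69.9% in S1, 56.8% to 64.5% in S5, 4% to 19.1% in S2 and 5.70% to 11.0% in S7. In S4 (41.6% to 50%) and S8 (18.0% to 24.1%) the range overlapped that of *tt19-8*. The 4% in S2 rests on 1 *VSP1* and 24 *VSP2* counts in replicate 3. The coding sequences were 89.5% identical, so that some reads could be given to either gene.

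*CLH1* (AT1G19670), a chlorophyllase gene induced by jasmonate and its mimic coronatine, had 17.8, 15.6 and 6.14 CPM in S2, 22.1, 26.8 and 17.9 CPM in S7 and 15.0, 14.3 and 13.8 CPM in S8, against 2.59, 2.62 and 3.70 CPM in *tt19-8*. All 3 lines were above their parent, with log2 fold changes of 2.15 ± 0.32 (adjusted p = 7.94e-05), 2.91 ± 0.32 (6.99e-07) and 2.27 ± 0.32 (2.69e-05). S5, at 8.09, 7.41 and 4.89 CPM, was higher as well (adjusted p = 0.00899), a call lost without replicate 1 of S5, and S1 and S4 did not pass. S2 and S7 thus combined higher *CLH1*, *AOC2* and *LOX3* with lower *VSP1* and *JOX2*. The summed level of the 5 shoot marker genes was 307 to 361 CPM in S7, 176 to 243 CPM in S2 and 136 to 166 CPM in S8, against 167 to 174 CPM in *tt19-8*, and its part in the *CLH1* values was not tested. *THI2.1*, a thionin gene, had 0 to 39 counts per library and passed in no line.

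**Figure D5:**
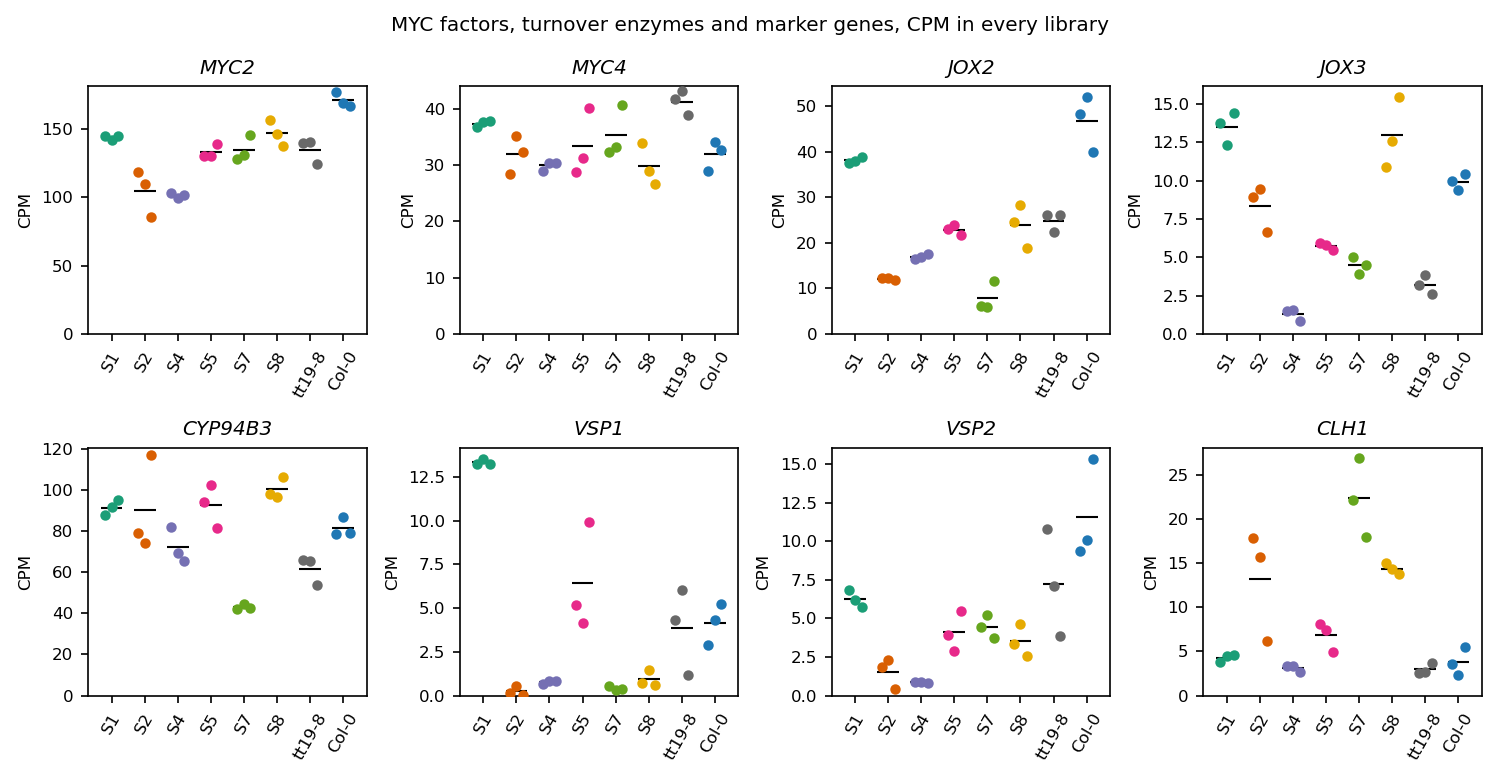
Points are CPM in the 3 libraries of each genotype and black lines their means, for *MYC2*, *MYC4*, *JOX2* and *JOX3* (upper row) and *CYP94B3*, *VSP1*, *VSP2* and *CLH1* (lower row), on linear axes from 0. S1 has the highest *VSP1*, S4 the lowest *JOX3*, and S7 the highest *CLH1* and the lowest *JOX2* and *CYP94B3*.

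Set against Col-0 directly, the lines differed in how many genes were lower, and these comparisons share the 3 Col-0 libraries. S4 had 0 genes higher and 20 lower, where 20.6% of all genes tested were higher and 22.3% lower. At an unadjusted p under 0.05 by edgeR, and by DESeq2, 0 were higher as well, while leaving out replicate 3 of *tt19-8*, S2 and S8, or fitting S4 and Col-0 alone, gave 1. S7 had 3 higher and 21 lower (22.3% and 20.4% of all genes), S2 had 2 higher and 15 lower (14% and 13.3%), and S5 had 3 higher and 12 lower (13% and 12.2%). S1 had 6 higher and 7 lower (18.2% and 18.2%), close to the shares over all genes, and S8 had 6 higher and 8 lower (14.8% and 14.4%). For S1 the count was 8 without its replicate 2, and 25 in a fit to S1 and Col-0 alone. *JAZ1* shows the difference between lines, with log2 fold changes relative to Col-0 of -0.14 ± 0.14 in S1, -0.10 ± 0.14 in S5 and 0.25 ± 0.14 in S8, none of which passed, and of -0.70 ± 0.14 in S2, -0.83 ± 0.14 in S4 and -1.03 ± 0.14 in S7 (adjusted p of 0.00115, 0.000111 and 8.48e-06). *JAZ2* was below Col-0 in all 6 lines, by log2 fold changes from -0.93 in S7 to -0.33 in S8, and so was *JOX2* in the lines other than S1, from -2.54 in S7 to -0.97 in S8. *LOX3* was above Col-0 in S8 alone, by 0.97 ± 0.17, and *LOX4* in 3 lines, by 1.18 ± 0.20 in S8. The other genes called above Col-0 were *AOC2* (5 lines), *CLH1* (3), *AOC3* (2), and *JOX3* and *VSP1* (1 each). *LOX2* was called in 4 lines, on counts near the limit of detection.

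S1, S2, S4 and S8 carry mutations in the same gene, and the lines were tested against each other. S4 relative to S8 had 1 gene higher and 20 lower, where 16.9% of all genes tested were higher and 18.7% lower. Relative to S2, S4 had 2 higher and 8 lower (13% and 15.6% of all genes). In either direction together, S4 and S8 differed in 63.6% of the 33 genes, against 35.6% of all genes, and S4 and S2 in 30.3%, close to the 28.6% of all genes. *AOC2* was lower in S4 by log2 fold changes of -3.34 ± 0.37 relative to S8 (adjusted p = 1.03e-06) and -3.38 ± 0.37 relative to S2 (1.73e-06). *JOX3* was lower by -3.28 ± 0.19 relative to S8 (adjusted p = 5.05e-10) and -2.64 ± 0.19 relative to S2 (1.28e-08). The lines with stop codons differed too. S2 relative to S8 had 0 genes higher and 14 lower (4.26% and 6.45% of all genes), among them *JAZ10* (-2.02 ± 0.32, adjusted p = 0.000279) and *LOX4* (-1.50 ± 0.20, adjusted p = 4.03e-05), and 7 lower in a fit to those lines alone. Of that comparison, 1 gene (*NINJA*) was higher at an unadjusted p under 0.05 by edgeR and 0 were called higher by DESeq2. S1 relative to S8 had 4 higher and 5 lower (13.3% and 14.7% of all genes), together 27.3% of the 33 and no more than the 28% of all genes, with *VSP1* higher (3.86 ± 0.55, adjusted p = 2.3e-05) and *CLH1* lower (-1.75 ± 0.31, adjusted p = 0.000216). That count was 5 without replicate 2 or 3 of S1 or replicate 3 of S8, and 15 in a fit to S1 and S8 alone.

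Summed levels of the marker lists, led by *PYK10* for root and *RBCS1A* for shoot, differed between lines as well. The 6 root genes summed to 752 to 1522 CPM in S2 and 1034 to 1636 CPM in S7, both wholly below the 1767 to 2570 CPM of *tt19-8*. In S4 the 10 low-oxygen genes summed to 6380 to 6731 CPM, against 1974 to 9532 CPM in *tt19-8*, where replicate 3 was the high library, so that the ranges overlapped. The shoot genes of S4 summed to 93.6 to 106 CPM, against 167 to 174 CPM in *tt19-8*, and its root genes to 860 to 921 CPM, against 1767 to 2570 CPM in *tt19-8*. In S1 the low-oxygen sum was 1017 to 1040 CPM and the seed storage sum was 4211 to 4519 CPM, against 982 to 1107 CPM of seed storage genes in *tt19-8*. The part of these levels in the jasmonate genes was not tested.

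A wider list of 31 other jasmonate genes had 24 that could be tested. In *tt19-8*, 2 (8.33%) were higher and 8 (33.3%) lower than in Col-0, against 7.13% and 6.5% of all genes. The 8 included the markers *TAT3*, *ERF1*, *ANAC019* and *ANAC055* given above. Relative to *tt19-8*, 11 (45.8%) were higher and 4 (16.7%) lower in S1, against 16.5% and 17.5% of all genes, and 14 (58.3%) were higher and 3 (12.5%) lower in S8, against 12.6% and 13.1%. In S5, 9 (37.5%) were higher and 3 (12.5%) lower, against 12.3% and 12.4% of all genes, and in S2 it was 7 (29.2%) and 2 (8.33%), against 9.49% and 9.6%. S4 had 1 (4.17%) higher and 5 (20.8%) lower, against 7.83% and 10.9% of all genes, and S7 had 2 (8.33%) and 8 (33.3%), against 18.1% and 19.2%. The lower counts in S1, S2, S5 and S8 were thus close to those over all genes. *CYP94B1*, a relative of *CYP94B3* that also hydroxylates the conjugate, was lower in all 6 lines, with log2 fold changes from -1.28 ± 0.22 in S4 to -0.59 ± 0.21 in S1 (adjusted p between 0.000302 and 0.0452). *JAT1*, a transporter of jasmonate, averaged 38.1 ± 2.42 CPM in S1, 29.9 ± 8.10 CPM in S2, 26.8 ± 1.06 CPM in S4, 36.2 ± 2.41 CPM in S5, 16.3 ± 1.93 CPM in S7 and 22.7 ± 0.883 CPM in S8, against 14.8 ± 4.60 CPM in *tt19-8* (SD, n = 3 each, edgeR test). It was higher in the 5 lines other than S7. Calls of the wider list were not followed under the alternatives, and the comparisons of all 6 lines share the *tt19-8* libraries.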

How the data were processed

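Paired-end reads had been checked by the authors with FastQC 0.11.5, aligned to TAIR10 with HISAT2 and counted per gene, and the deposited values are raw counts per gene and library. Whether counting used strand, and how reads that map to several places were treated, is not given in the sources used here. Of 33331 identifiers, 28932 had a locus tag in RefSeq's TAIR10.1 annotation, from which gene lengths, promoter sequences and their coordinates were taken.

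Counts of all 24 libraries (25827059 to 73443869 per library) were filtered with filterByExpr, which left 22089 genes, scaled by TMM and fitted with 1 mean per genotype (edgeR 4.0.16 in R 4.3.3, limma 3.58.1). Quasi-likelihood F tests were two-sided, with p-values adjusted by Benjamini-Hochberg over all 22089 genes and called under 0.05 whatever the fold change. The pipeline was tested on simulated data. CPM was computed with TMM-scaled totals and TPM from exon lengths. A level of 0 was set against a floor of 3 counts per library. Floors cover counting error only.

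The 35 genes and the other lists were chosen with earlier results of these data known. Values in every library are given for genes with 1 of the 3 largest rises or falls, without overlap of libraries, in *tt19-8* relative to Col-0 or in a line relative to *tt19-8*, and for some others singled out after their values were seen. Genes with a mean under 1 CPM are given by counts.

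Same-numbered replicates deviated together in all pairs (every correlation over 0.1) only for S2 and *tt19-8*, with correlations of 0.118, 0.102 and 0.229. For replicate 3 alone, the correlation was 0.266 between S8 and *tt19-8* and 0.228 between S2 and S8. Replicates 1 and 2 had 0.0796 and 0.0778 for S8 and *tt19-8*, and 0.0390 and 0.100 for S2 and S8. Between S7 and *tt19-8*, same-numbered replicates deviated in opposite directions, with correlations of -0.122, -0.123 and -0.263. With the replicate number as blocking factor, the S2 count relative to *tt19-8* was 11, the same as without it. The S7 count was 16, against 15 without it. Alternatives were size factors of DESeq2 (RLE), no filter, the replicate block, DESeq2 1.42.0, a fit to only the 2 genotypes compared, and leaving out libraries.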

Additional observations from a re-analysis of the deposited data

Results flagged for a closer look

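Lines with mutations in the same gene, *RDR6*, differed from each other in jasmonate genes by the test of the difference itself. S4 and S2 differed in 10 of the 33 genes (30.3%, close to the 28.6% of all genes tested), among them *AOC2* (log2 fold change of S4 over S2 -3.38, adjusted p = 1.73e-06, edgeR) and *JOX3* (-2.64, adjusted p = 1.28e-08). S4 and S8 differed in 21 genes (63.6%, against 35.6% of all genes), with *AOS* at -1.18 (adjusted p = 3.18e-07), *AOC2* at -3.34 (1.03e-06) and *JOX3* at -3.28 (5.05e-10), each as the log2 fold change of S4 over S8. S2 and S8, both with premature stop codons, differed in 14 genes (42.4%, against 10.7%). S1 and S8, also with stop codons, differed in 9 genes (27.3%, no more than the 28% of all genes), and *VSP1* was higher in S1 than in S8 by 3.86 on the log2 scale (adjusted p = 2.30e-05).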

How the results depend on the processing

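The alternatives followed 97 changes of the 33 genes tested, called in *tt19-8* relative to Col-0 or in a line relative to *tt19-8*. Genes of the wider list were not followed. Of these, 70 stayed called under every alternative that tested them, 27 were lost under at least 1, and 0 changed direction. *LOX2* in S7 and S8 and *JOX4* in S7 were tested in 11 alternatives, the other changes in 12. An alternative in which a gene was not tested was not counted as a loss. RLE size factors lost 2, no filter lost 3, the replicate block 1, DESeq2 0, leaving out replicate 3 of *tt19-8*, S2 and S8 together 4, and fitting only the 2 genotypes compared 15. That last fit took the spread from the 6 libraries compared, where the main fit shared 1 spread per gene over all 24. For S2 it gave 4 genes (3 higher, 1 lower) relative to *tt19-8* and 7 relative to S8, against 11 and 14 in the main fit. For S1 it gave 25 relative to Col-0 and 15 relative to S8, against 13 and 9. As a median over genes, replicates of S2 differed by 5.63 to 24.0 times counting error, and those of S1 by 3.97 to 5.29 times. A shared spread does not show such differences between genotypes. With the replicate block, *tt19-8* relative to Col-0 had 15 calls, *CYP94B3* being the 1 lost. Counts of called genes with 1 library left out ranged over 29 to 31 among the 8 genotypes and 10 to 16 for *tt19-8* relative to Col-0. Relative to *tt19-8* they were 15 to 16 in S1, 9 to 12 in S2, 8 to 13 in S4, 9 to 14 in S5, 13 to 17 in S7 and 15 to 18 in S8. Relative to Col-0 they were 8 to 12 in S1, 13 to 18 in S2, 17 to 20 in S4, 10 to 16 in S5, 21 to 25 in S7 and 11 to 15 in S8. Between lines they were 8 to 14 for S4 and S2, 19 to 20 for S4 and S8, 11 to 15 for S2 and S8, and 5 to 7 for S1 and S8. For S5, leaving out replicate 3 gave 14. The causes were not tested. Depth limits *LOX2*, *JAZ8*, *JOX4* and *THI2.1*, with means under 1 CPM, and *VSP1* in S2.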
